A study of Camellia japonica and Camellia azalea with 81 samples.

Results

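Autumn leaves of Camellia japonica were set against its summer leaves. The members are 18 of the 81 RNA sequencing libraries of the series. They were chosen by the month in the sample labels, as 9 autumn libraries (3 each from Sep, Oct and Nov) and 9 summer libraries (3 each from Jun, Jul and Aug). The labels give months only, so the seasons are a grouping made for this comparison. All 18 libraries are total RNA from tissue labelled young leaf, of one species, with no treatment named. The labels name no cultivar, plant age, growing site, year or hour of collection. They also do not say whether a month's 3 libraries are from different plants, so every p-value below reflects spread among libraries that may be technical repeats. The rest of the series holds the other months of C. japonica leaves, 36 leaf libraries of Camellia azalea over the same 12 months and 9 libraries of C. japonica flower buds.

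Camellia japonica is an evergreen shrub of the tea family whose leaves stay on the plant through the winter. In evergreen woody plants, shortening days and falling temperatures in autumn are known to bring on cold acclimation, in which leaf metabolism, membranes and protective proteins are remodelled before frost. C. japonica forms its flower buds in summer and flowers in the cold season, whereas C. azalea is known for flowering through the warm months. The series was made to follow genes with seasonal expression in the leaves of both species.

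Values are TPM, the share of a library's transcripts given to a gene after correction for its length, on a fixed total. The tables carry gene IDs without gene names, so the members of known pathways were not looked up, and the tissue label was not checked against marker genes. Mean Pearson correlations of log2(TPM + 1) with the buds labelled FB-2 and FB-3 lay between 0.608 and 0.686 for the 18 libraries. Their mean correlations with the summer and with the autumn leaf libraries were 0.856 or more. With its single closest leaf library, each library correlated at 0.921 or more. The IDs used were kept by their level in leaf libraries, and the buds labelled FB-1 were left out. Several libraries stood nearer to another month than to their own. Only 2 of the 18 had their closest library in their own month, 0 of 9 in autumn and 2 of 9 in summer. In 9 of the 18 the closest library was in the same season, 4 of 9 in autumn and 5 of 9 in summer. Sep library 1 was closest to Aug library 3 (r = 0.981) and correlated on average with the autumn libraries at 0.907 and with the summer libraries at 0.932. Jul library 3 correlated with the other Jul libraries at 0.89 on average and was also closest to Aug library 3 (r = 0.941). Others did likewise to a smaller degree. Oct library 3 was closest to Aug library 3 (r = 0.966), with a mean of 0.914 with autumn and 0.921 with summer. Aug library 1 averaged 0.887 with autumn and 0.879 with summer, and Aug library 2 averaged 0.904 with autumn and 0.885 with summer. Whether the month labels of these libraries are right was not tested. No pair of libraries was identical over all IDs. Counts of calls were also taken without Sep library 1 and Jul library 3, and with 1 library left out at a time. The shares of TPM, the profiles through the year and the overlap between species were computed with all libraries only. Library numbers in C. japonica only tell libraries apart.

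The 10 most abundant IDs took a smaller share of the leaf transcripts in autumn. They held 7.05% to 10.01% (median 8.42%) in the 9 autumn libraries and 9.46% to 15.4% (median 11.5%) in the 9 summer libraries. The means were 8.32% ± 0.82 in autumn and 12.2% ± 2.46 in summer (SD, n = 9 each), a difference of -3.84 percentage points (exact permutation test, two-sided, p = 0.00016). The ranges overlapped only between the Sep library at 10.01% and the Aug and Jun libraries below it. The number of IDs at 1 TPM or more was 22560 to 24468 (median 23996) in autumn and 22498 to 24195 (median 23362) in summer, and the means did not pass (exact permutation test, two-sided, p = 0.07). Both permutation tests took each library as a unit, although the libraries of a month share its season. Month means were not tested for these measures. TPM sum to a fixed total, so where a few IDs take less of it the others are listed higher. The median difference of all IDs tested was 0.21 on the log2 scale, autumn minus summer. Whether the smaller share of the 10 most abundant IDs accounts for this median was not tested.

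Autumn leaves differed from summer leaves at a small share of the IDs. In all, 659 of 29156 IDs tested passed (2.26%), at a limma adjusted p below 0.05 and a difference of at least 1 on the log2(TPM + 1) scale. Of these, 500 (1.71%) were higher in autumn and 159 (0.545%) were lower. When libraries were rescaled by the median of ratios, 171 IDs were higher and 219 lower, and after quantile normalization 192 were higher and 182 lower, so the excess of higher over lower calls was large only on the deposited scale. The rescaled medians over all IDs tested were -0.0047 and 0.025. In this as in every comparison below, fewer cells of a type and less RNA per cell cannot be told apart in bulk leaf tissue.

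Among the 500 higher IDs the median difference was 1.32, against 0.21 over all IDs tested, with 63 at 2 or more and 9 at 3 or more. The median ID of this group was at 24.8 TPM in autumn and 8.05 TPM in summer. All 9 autumn libraries lay above all 9 summer libraries for 13 of the 500 IDs (2.6%), beside 41 of the 29156 tested (0.141%). For most of the called IDs the seasons thus overlapped in at least 1 library. Among the 159 lower IDs the median difference was -1.39, with 27 at 2 or more below summer and 2 at 3 or more below. The median ID was at 4.73 TPM in autumn and 15.9 TPM in summer, and 0 of the 159 had all autumn libraries below all summer libraries, as was so for 0 of the 29156 tested.

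The 2 IDs that rose most in autumn were near 0 TPM in summer and had their highest autumn values in Nov. EVM0022027 stood at 0 to 159.7 TPM (median 11.3) in autumn and 0 to 0.691 TPM (median 0) in summer. It was listed at 0, 5.81 and 3.87 TPM in Sep, 2.38, 95.7 and 11.3 TPM in Oct and 89.0, 159.7 and 56.6 TPM in Nov, and at 0 in 6 of the 9 summer libraries. In all, 8 of the 9 autumn libraries were above every summer library, and the exception was Sep library 1, whose closest library was Aug library 3. The difference was 3.86 ± 0.63 (SE; limma adjusted p = 0.000813). EVM0018696 stood at 1.78 to 246.6 TPM (median 8.72) in autumn and 0 to 3.65 TPM (median 0.176) in summer. Its Nov libraries read 13.4, 246.6 and 158.4 TPM, and 7 of 9 autumn libraries were above every summer library. The summer maximum belonged to Jul library 3, and the difference was 3.47 ± 0.51 (SE; limma adjusted p = 0.000578).

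The 2 IDs that fell most had their highest values in Jul. In Aug all libraries of EVM0036048 and some of EVM0001681 were already within the autumn range. EVM0036048 stood at 0 to 17.5 TPM (median 2.14) in autumn and 1.35 to 871.3 TPM (median 12.5) in summer. Its summer values were 5.47, 1.35 and 684.3 TPM in Jun, 871.3, 849.7 and 92.2 TPM in Jul and 7.45, 3.48 and 12.5 TPM in Aug. Only 4 of the 9 summer libraries lay above every autumn library, 1 from Jun and all 3 from Jul. The difference was -3.54 ± 1.01 (SE; limma adjusted p = 0.0259), and the call was lost when Jun library 3 (-2.71), Jul library 1 (-3.36), Jul library 2 (-3.36), Sep library 3 (-3.23) or Nov library 2 (-3.31) was left out, with limma adjusted p between 0.0546 and 0.0678. EVM0001681, among the abundant IDs of the summer leaf, stood at 30.2 to 1119 TPM (median 131.8) in autumn and 138.4 to 3494 TPM (median 1902) in summer. Sep library 1 held the autumn maximum and the next autumn library was at 286.3 TPM. In all, 5 autumn libraries were below every summer library and 6 summer libraries were above every autumn library, the other 3 being Jul library 3 and Aug libraries 1 and 2. The difference was -3.01 ± 0.57 (SE; limma adjusted p = 0.00243).

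**Figure D1:**
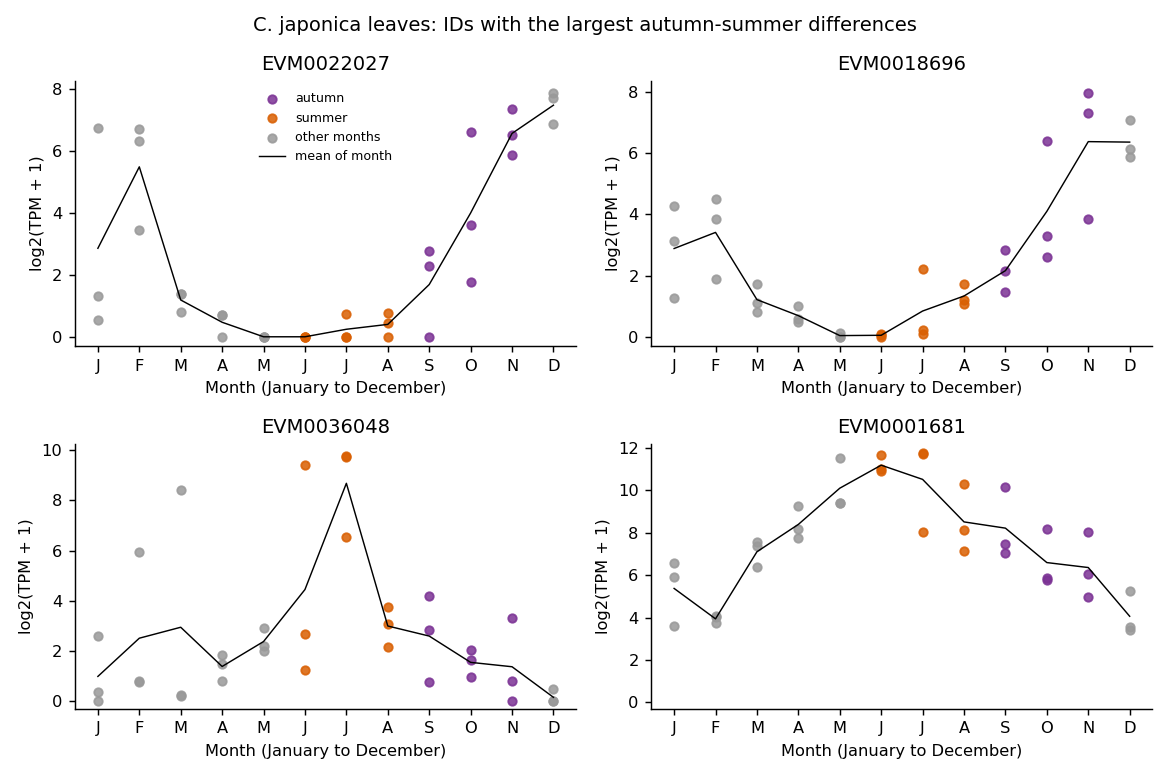
Level on a log2(TPM + 1) axis of the 4 named IDs in C. japonica leaves by month from January to December. Each point is a library (purple autumn, orange summer, grey other months) and the line joins the month means. EVM0022027 and EVM0018696 are near 0 through summer and reach 159.7 and 246.6 TPM in Nov, while EVM0036048 and EVM0001681 reach 871.3 and 3494 TPM in Jul.

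The plot of the 4 IDs through the year shows where the season means hide a spread within a month. For EVM0036048 the Jun libraries differ from each other by more than the season medians do. For EVM0022027 and EVM0018696 the Oct libraries ran from values near those of Sep to 95.7 and 83.0 TPM, both in Oct library 2. With the month mean as the unit, 3 months against 3, none of the 4 passed (limma adjusted p = 0.169, 0.169, 0.21 and 0.163, in the order above), and 0 of the IDs tested were called, with 5413 at an unadjusted p below 0.05. Without Sep library 1 and Jul library 3, a choice made after seeing the data, 1264 IDs were called, 950 higher and 314 lower in autumn, and 648 of the 659 were among them. The count was 393 without Sep library 2 and 1108 without Sep library 1.

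Calls were made at every level of expression and were rarest at the lowest. Of the IDs with a mean of at least 100 TPM over the 18 libraries, 59 were higher and 25 lower in autumn, together 5.27% of 1595 tested. The share was 2.92% between 20 and 100 TPM, 2.67% between 5 and 20 TPM and 1.83% between 1 and 5 TPM. Below 1 TPM it was 0.0691%, where the scale understates differences. Summed over a library, the IDs higher in autumn held 2.25% to 4.79% of the TPM in autumn (median 3.71%) and 0.69% to 2.53% in summer (median 1.15%). The lowest autumn share was that of Sep library 1 and the highest summer share that of Aug library 2. The IDs lower in autumn held 0.3% to 1.71% in autumn (median 0.564%) and 1.21% to 5.26% in summer (median 2.56%). Sep library 1 had the highest autumn share of these IDs, and Aug library 2 the lowest summer share. These sums describe IDs chosen on the same libraries.

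Each autumn month was also set against the summer mean. In November 975 IDs passed against the summer mean (3.34%), 880 higher and 95 lower. In October 33 passed (0.113%), 30 higher and 3 lower, and in September 0 passed (0%), with 2558 at an unadjusted p below 0.05. The 3 contrasts share the summer libraries. For the IDs that rose most, the difference from summer was 1.47 in Sep, 3.78 in Oct and 6.34 in Nov for EVM0022027, and 1.42, 3.35 and 5.63 in the same months for EVM0018696. Of these values those of Nov passed (limma adjusted p = 0.000229 and 0.000164). EVM0001681 was at -1.85 in Sep, -3.47 in Oct and -3.71 in Nov, where it passed (limma adjusted p = 0.011). EVM0036048 was at -2.78, -3.83 and -4.00 and passed in none of the 3 months taken alone (limma adjusted p = 0.0809 in Nov).

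These monthly counts rested on single libraries, and they do not test the autumn months against each other. The Nov count was 43 without Nov library 2, 397 without Nov library 3, 473 without Nov library 1 and 558 without Aug library 1. The Sep count was 123 without Sep library 1 and 117 without Jul library 3, and without both it was 373, with 395 in Oct. The Oct count was 0 without Oct library 2 and 358 without Jul library 3, and moved by over 1.5 times for every library left out except Aug library 3, Sep library 2 and Nov library 1. Under median-of-ratios scaling the counts were 3 in Oct and 184 in Nov.

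**Figure D2:**
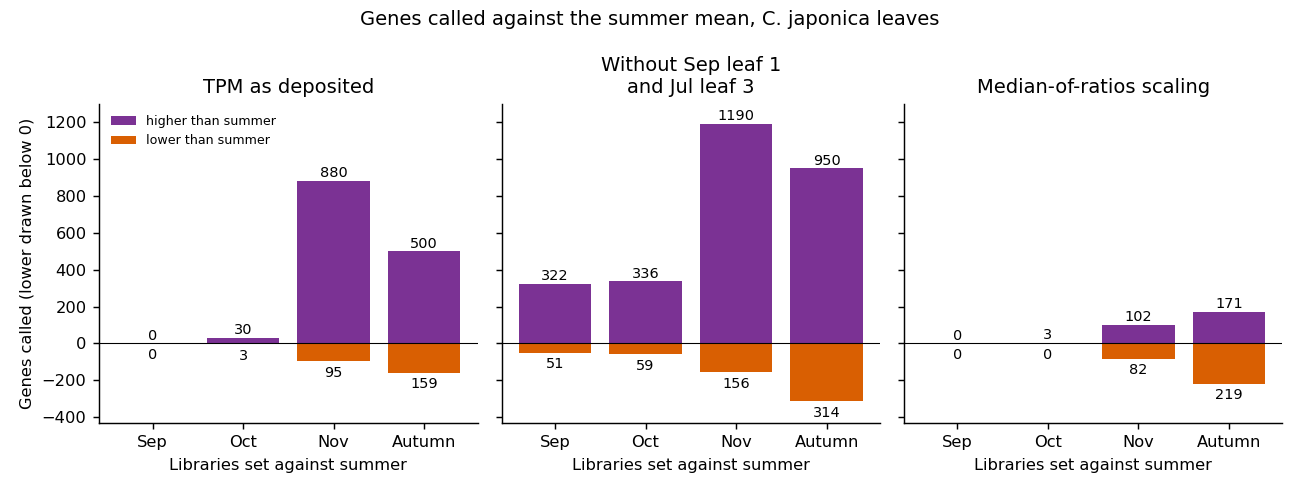
Numbers of IDs called higher (purple, upward) and lower (orange, downward) than the summer mean in Sep, Oct, Nov and autumn as a whole, for TPM as deposited, without Sep library 1 and Jul library 3 (drawn as Sep leaf 1 and Jul leaf 3), and after median-of-ratios scaling. In Sep 0 are called as deposited, and 322 higher and 51 lower without those libraries.

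At the turn of the seasons, 0 of 29156 IDs passed between Sep and Aug (0%), with 1018 at an unadjusted p below 0.05. The median spread of the 3 libraries within a month was 0.442 in Sep, 0.452 in Oct and 0.383 in Nov, against 0.301 in Jun, 0.356 in Jul and 0.4 in Aug (SD on the log2 scale, over the IDs tested). Autumn months were thus at least as variable within a month as Jun and Jul. Within autumn 1 ID passed between Nov and Sep (0.00343%), with 1418 at an unadjusted p below 0.05. It was EVM0002957, at 67.8, 144.9 and 107.8 TPM in Nov and 0, 0.544 and 0.612 TPM in Sep. Its Oct libraries read 0, 71.7 and 9.35 TPM, and 8 of the 9 summer libraries were listed at 0. The difference between Nov and Sep was 6.25 ± 0.88 (SE; limma adjusted p = 0.00315), and it was lost without Sep library 1 (6.03, limma adjusted p = 0.0586) or Nov library 2 (6.0, limma adjusted p = 0.0616) and at a pseudocount of 0.1 (limma adjusted p = 0.327). In Dec it stood at 194.8, 70.6 and 119.9 TPM, in the range of Nov.

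Across the year, the IDs higher in autumn stayed high into winter. The median of the 500 month differences, each taken from the summer mean, was 1.00 in Jan, 1.29 in Feb, 0.99 in Mar, 0.63 in Apr, 0.21 in May, -0.19 in Jun, -0.14 in Jul, 0.32 in Aug, 1.16 in Sep, 1.29 in Oct, 1.61 in Nov and 1.5 in Dec. Over all IDs tested the monthly medians lay between -0.03 and 0.38. The values from Jun to Nov come from the libraries that chose the IDs, and those from Dec to May do not, although every month is taken against the same summer mean. The highest month was in autumn for 225 of the 500 (45%) and in winter for 229 (45.8%), against 20.9% and 36.8% of all IDs tested. Dec was the highest month for 152 (30.4%) and Nov for 142 (28.4%), against 8.36% and 12.4% of all IDs tested. The 500 IDs were chosen for being higher in autumn than in summer, so these shares carry no test.

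The IDs lower in autumn had a narrower peak, in Jun and Jul. Their monthly medians were -1.13 in Jan, -1.38 in Feb, -0.93 in Mar, -0.79 in Apr, -0.31 in May, 0.25 in Jun, 0.48 in Jul, -0.66 in Aug, -1.23 in Sep, -1.48 in Oct, -1.53 in Nov and -1.75 in Dec. August thus lay between Jul and Sep, and the lowest median fell in Dec. Jul was the highest month for 80 of the 159 (50.3%) and Jun for 38 (23.9%), and 127 (79.9%) peaked in a summer month, against 6.71%, 2.78% and 15.8% of all IDs tested. The lowest month was in winter for 91 (57.2%) and in autumn for 50 (31.4%), against 23.3% and 9.12% of all IDs tested. These IDs were chosen for being higher in summer than in autumn, so the shares carry no test.

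**Figure D3:**
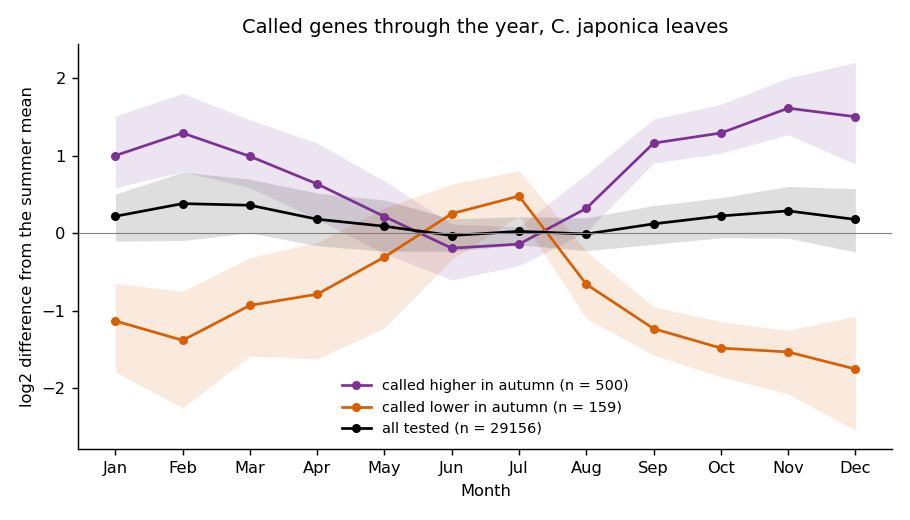
Median difference from the summer mean (log2 scale; band, middle 50% of IDs) in each month from Jan to Dec, for the 500 IDs higher in autumn, the 159 IDs lower in autumn and all 29156 IDs tested. The higher group reaches 1.61 in Nov and 1.5 in Dec, the lower group reaches 0.48 in Jul and -1.75 in Dec, and the median of all IDs stays between -0.03 and 0.38.

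The profile through the year also gives the order of the autumn months within each group. The month means rose in turn through Sep, Oct and Nov for 214 of the 500 higher IDs (42.8%), beside 30.1% of all IDs tested. They fell in turn for 53 of the 159 lower IDs (33.3%), beside 9.23% of all IDs tested. These shares describe IDs chosen on the autumn means and carry no test.

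Levels in autumn were set against both neighbouring seasons, with spring outside the test. Against both summer and winter (Dec, Jan and Feb), 31 of 29156 IDs passed in the same direction (0.106%), 25 higher and 6 lower in autumn. The count was 90 without Feb library 1 and Jan library 3, winter libraries found in earlier work to stand apart from their label, 51 without Sep library 1, 17 without Sep library 2, 19 without Oct library 2, 20 without Nov library 2 and 19 under median-of-ratios scaling. EVM0025062 stood at 2.11 to 96.2 TPM (median 32.97) in autumn, 0 to 21.5 TPM (median 4.71) in summer and 0 to 14.8 TPM (median 3.10) in winter. Its difference was 2.33 ± 0.68 from summer (SE; limma adjusted p = 0.0293) and 2.54 from winter (limma adjusted p = 0.0257), and 5 of the 9 autumn libraries were above every summer library. EVM0035547 stood at 14.7 to 158.2 TPM (median 42.3) in autumn, 0.725 to 167.4 TPM (median 2.57) in summer and 0.718 to 222.5 TPM (median 3.30) in winter. Its Aug libraries, at 41.4, 167.4 and 37.9 TPM, were already in or above the autumn range, and its winter maximum was that of Jan library 3. The difference was 2.19 ± 0.64 from summer (SE; limma adjusted p = 0.0296) and 2.41 from winter (limma adjusted p = 0.0246).

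Of the IDs called lower in autumn than in both summer and winter, EVM0014634 stood at 0 to 1.74 TPM (median 0.383) in autumn, 0.0953 to 14.6 TPM (median 8.88) in summer and 1.01 to 18.97 TPM (median 7.89) in winter. The difference was -1.81 ± 0.49 from summer (SE; limma adjusted p = 0.0203) and -2.19 from winter (limma adjusted p = 0.00919). EVM0012841 stood at 0 to 8.69 TPM (median 1.54) in autumn, 0.632 to 38.5 TPM (median 13.01) in summer and 1.01 to 25.9 TPM (median 13.7) in winter. Its difference was -1.41 ± 0.45 from summer (SE; limma adjusted p = 0.0442) and -1.71 from winter (limma adjusted p = 0.0239). Both were already low in August, EVM0014634 at 0.0953, 1.36 and 0.712 TPM and EVM0012841 at 0.632, 1.42 and 0.669 TPM. In spring, which was not tested, EVM0014634 was at 0 to 14.9 TPM (median 9.44) and EVM0012841 at 1.2 to 39.6 TPM (median 1.99), so that low values also occurred there.

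**Figure D4:**
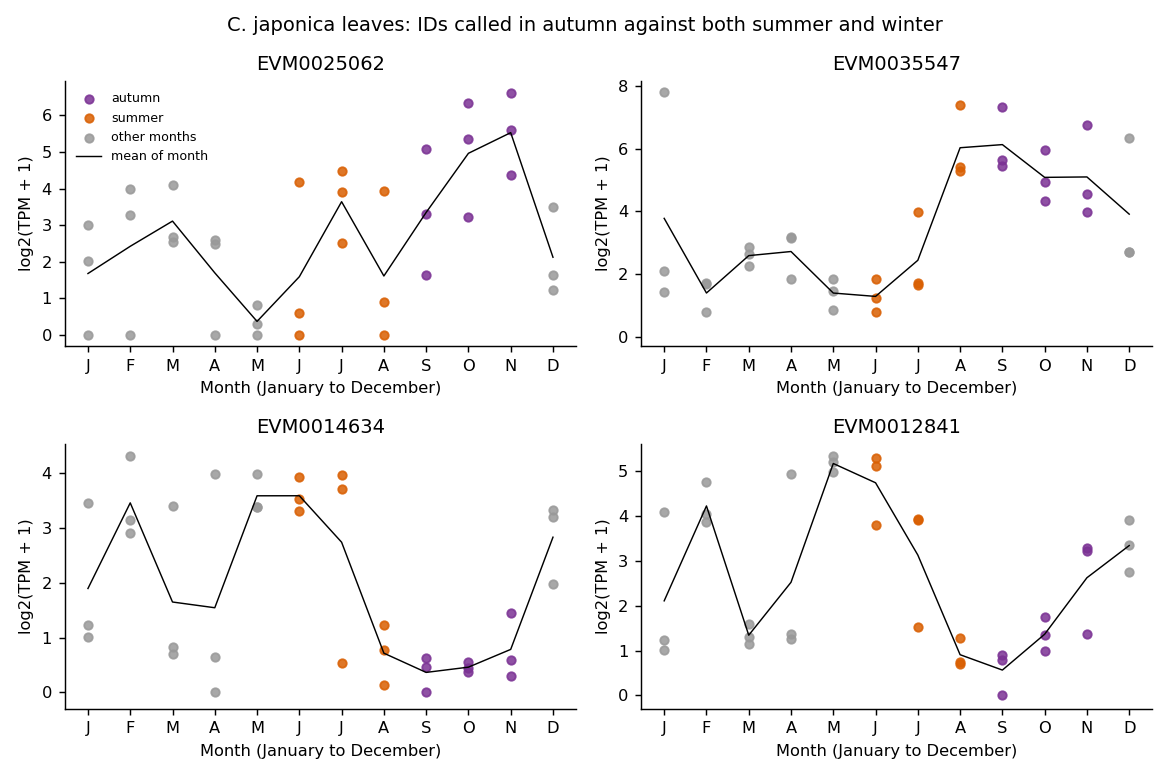
Level on a log2(TPM + 1) axis of the 4 named IDs among those called in autumn against both summer and winter, in C. japonica leaves by month from January to December. Each point is a library (purple autumn, orange summer, grey other months) and the line joins the month means. EVM0025062 reaches 96.2 TPM in Nov and EVM0035547 is at 14.7 TPM or more from Aug to Nov, while EVM0014634 stays at or below 1.74 TPM and EVM0012841 at or below 8.69 TPM in autumn.

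Each of the 4 named IDs in this plot lost its call in at least 1 refit that left out 1 library. EVM0014634 lost its call without Jul library 1 (-1.61, limma adjusted p = 0.0529) or Jul library 2 (-1.65, limma adjusted p = 0.0501). EVM0025062 lost it without Jun library 1 or 2, Aug library 1 or 2, Sep library 2, Oct library 2 or 3 or Nov library 2 (2.04 to 2.26, limma adjusted p = 0.0543 to 0.0831), and it also lost it at a pseudocount of 0.1 (limma adjusted p = 0.0728), under median-of-ratios scaling (limma adjusted p = 0.0961), after quantile normalization (limma adjusted p = 0.0841) and without Feb library 1 and Jan library 3 (limma adjusted p = 0.0511). EVM0035547 lost it without Jun library 2, Jul library 1 or 2, Aug library 1 or 3, Sep library 3 or Nov library 1 (1.91 to 2.1, limma adjusted p = 0.0517 to 0.0644), under median-of-ratios scaling (limma adjusted p = 0.103) and after quantile normalization (limma adjusted p = 0.0982). EVM0012841 kept its call in 5 of 18 refits, those without Jun library 3, Jul library 3, Sep library 1, Nov library 2 or Nov library 3, and otherwise gave -1.20 to -1.47 (limma adjusted p = 0.0558 to 0.0965). It also lost its call with no filter on low values (limma adjusted p = 0.0578), under median-of-ratios scaling (limma adjusted p = 0.0512) and after quantile normalization (limma adjusted p = 0.0526).

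Of the 4 IDs that changed most between the seasons, 1 also passed between autumn and winter. It was EVM0001681, at 30.2 to 1119 TPM (median 131.8) in autumn and 9.63 to 94.4 TPM (median 15.1) in winter, a difference of 2.6 (limma adjusted p = 0.00827), so that its autumn level lay between those of summer and winter. EVM0022027, at 0.442 to 230.0 TPM (median 103.3) in winter, differed between autumn and winter by -1.19 (limma adjusted p = 0.281). EVM0018696, at 1.41 to 133.9 TPM (median 18.2) in winter, differed by -0.01 (limma adjusted p = 0.998). EVM0036048 differed from winter by 0.62 (limma adjusted p = 0.782).

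The same contrast in C. azalea leaves called 1025 of 27492 IDs (3.73%), 745 higher and 280 lower in autumn. Of the 25478 IDs tested in both species, 483 were called higher in C. japonica, and 143 of these were also called higher in C. azalea. That is 29.6% of the C. japonica group and 20% of the 716 called higher in C. azalea, against 2.81% called higher in C. azalea among all IDs tested in both. Of 135 called lower in C. japonica, 34 were also called lower in C. azalea, which is 25.2% of that group and 13% of the 262 called lower in C. azalea, against 1.03% among all. In the opposite direction 0 of the 483 (0%) and 2 of the 135 (1.48%) were called in C. azalea, against 1.03% and 2.81% among all. The median C. azalea difference was 0.69 for the 483 and -0.40 for the 135, against 0.18 over all 25478. Under median-of-ratios scaling 46 of 166 (27.7%) and 45 of 196 (23%) were shared, against 1.3% and 1.84% among all.

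**Figure D5:**
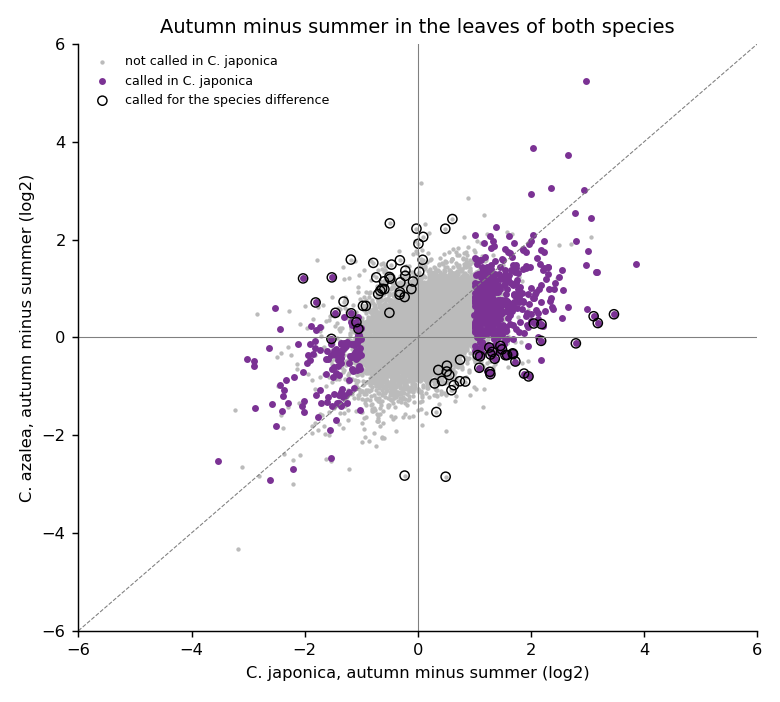
Autumn minus summer difference (log2 scale) of each ID tested in both species, in C. japonica on the x axis and in C. azalea on the y axis, with the IDs called in C. japonica in purple, those called for the species difference ringed and a dashed line where both differences are equal. The 483 called higher in C. japonica have a median of 0.69 in C. azalea and the 135 called lower have a median of -0.40.

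The plot of both species sets the 2 differences of each ID side by side and does not mark calls in C. azalea. Among the 4 IDs above, 2 were also called in C. azalea. EVM0022027 differed by 3.86 in C. japonica and by 1.51 ± 0.31 in C. azalea (SE; limma adjusted p = 0.000994), and the species difference of 2.35 did not pass (limma adjusted p = 0.139). EVM0036048 differed by -3.54 in C. japonica and by -2.53 ± 0.71 in C. azalea (SE; limma adjusted p = 0.0135), with a species difference of -1.0 (limma adjusted p = 0.883). EVM0018696 differed by 3.47 in C. japonica and 0.47 in C. azalea (limma adjusted p = 0.17), and here the species difference of 2.99 ± 0.57 passed (SE; limma adjusted p = 0.0047). In C. azalea EVM0018696 was low, at 0.975 to 3.90 TPM (median 1.65) in autumn and 0.169 to 2.58 TPM (median 0.473) in summer. At such levels the scale understates differences. EVM0001681 differed by -3.01 in C. japonica and -0.44 in C. azalea (limma adjusted p = 0.387), with a species difference of -2.57 that did not pass (limma adjusted p = 0.0683).

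Tested over all 31584 IDs of both species, the autumn minus summer difference itself differed between C. japonica and C. azalea for 110 (0.348%), 51 with a more positive and 59 with a more negative difference in C. japonica. The count was 293 without Jul library 3 of C. japonica, 179 without its Sep library 1 and 235 under median-of-ratios scaling. The groups called in C. japonica held 29 and 16 of these, of 500 higher and 159 lower IDs, but they had been chosen on the C. japonica side of the same contrast. EVM0018558 was at 0.736 to 12.7 TPM (median 3.26) in autumn and 0.152 to 12.7 TPM (median 2.20) in summer in C. japonica. In C. azalea it was at 0.513 to 23.9 TPM (median 6.33) in autumn and 17.4 to 321.8 TPM (median 44.4) in summer. Its differences were 0.49 in C. japonica (limma adjusted p = 0.458) and -2.85 in C. azalea (limma adjusted p = 0.000523), and the species difference was 3.34 ± 0.71 (SE; limma adjusted p = 0.0132). The fall thus passed in C. azalea leaves, and the test of the difference between species passed as well, though not at a pseudocount of 0.1 (limma adjusted p = 0.146). That species call was lost in 2 of 10 alternatives other than leaving out 1 library, with limma adjusted p up to 0.999.

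EVM0002957, the ID that passed between Nov and Sep, was listed at 0 in all 18 C. azalea libraries of the same months and was not tested within C. azalea. It entered the fit of both species through C. japonica alone. Its species difference of 3.34 ± 0.53 (SE; limma adjusted p = 0.000789) therefore repeats its C. japonica difference of 3.34 (limma adjusted p = 0.000686) and adds no separate evidence. EVM0028297 had season differences of opposite sign in the 2 species. It was at 0.565 to 33.2 TPM (median 7.93) in autumn and 5.36 to 105.6 TPM (median 64.7) in summer in C. japonica, and at 2.23 to 42.6 TPM (median 13.5) in autumn and 0.784 to 42.5 TPM (median 2.57) in summer in C. azalea. The season ranges overlapped in both species. The differences were -2.03 in C. japonica (limma adjusted p = 0.0139) and 1.21 in C. azalea (limma adjusted p = 0.00635), and the species difference was -3.23 ± 0.61 (SE; limma adjusted p = 0.00404). In C. azalea the summer values above 20 TPM were those of Jun, at 42.5, 30.1 and 26.7 TPM. In Jul it was at 90.6, 85.9 and 15.9 TPM in C. japonica and at 0.84, 0.784 and 2.07 TPM in C. azalea. The Aug libraries of C. japonica, at 5.36, 6.86 and 5.62 TPM, were already within its autumn range.

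EVM0029645 was at 0 to 8.69 TPM (median 0) in autumn and 0 to 58.5 TPM (median 28.7) in summer in C. japonica, with 2 Jun libraries at 0 and the third at 48.0 TPM. In C. azalea it was listed at 0 in 17 of 18 libraries and at 0.068 TPM in Aug library 3. It was not tested within C. azalea. Its species difference of -2.96 ± 0.71 (SE; limma adjusted p = 0.0377) therefore repeats its C. japonica difference of -2.97 (limma adjusted p = 0.00957) and adds no separate evidence. The call was lost in 20 of 36 refits that left out 1 library, with limma adjusted p up to 0.0739. It was also lost in 4 of 9 other alternatives, with limma adjusted p up to 0.999. These included a pseudocount of 0.1 (limma adjusted p = 0.102) and no filter on low values (limma adjusted p = 0.0528). In C. japonica the 1-library refits that lost it left out Jul library 1 or 2, Aug library 1 or 2, Sep library 3, Oct library 2 or 3 or Nov library 1 or 2, and in C. azalea Jun library 2 or 3, Jul library 2 or 3, Aug library 2, Sep library 2 or 3, Oct library 3 or any Nov library.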

How the data were processed

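The deposited values are TPM, which the authors gave in a table for each species. HISAT2 2.1.0 and StringTie 1.3.6 were used per the submitters' processing notes, with genome build and annotation not given in the sources used here. All deposited TPM columns sum to 1000000 over 41982 IDs, so sequencing depth cannot be read from them and counting intervals are not given. Columns were tied to libraries by the code in the sample titles.

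Tests were run with limma 3.58.1 in R 4.3.3, with a mean-variance trend, on log2(TPM + 1), which understates differences of low IDs. All 36 C. japonica leaf libraries were fitted with 12 month coefficients, so that the months share 1 estimate of the spread, on IDs reaching 1 TPM in 3 or more libraries. Autumn was the mean of the Sep, Oct and Nov means and summer that of Jun, Jul and Aug. All tests were two-sided, and p-values were adjusted by Benjamini-Hochberg over every ID tested. C. azalea was fitted in its own table, and the species difference in 1 fit of 72 libraries on IDs of both tables (41952 are in both). Totals per library were compared with an exact permutation test over all splits, in Python 3.11.15. The procedures were tested on simulated data.

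IDs were named by rule, at most 2 in each direction per comparison, as the called IDs with the largest difference and a higher-group mean of 5 TPM or more. For autumn against both summer and winter the smaller of the differences from summer and winter ranked them, and for the months against summer no more were named. The comparison, the rule and the libraries left out together were chosen with earlier results of these data known. Alternatives were pseudocount, filter, scaling, libraries fitted, month means as the unit and libraries left out. Lists of pathway genes and markers were not used, since no table pairs the IDs with names.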

Additional observations from a re-analysis of the deposited data

Results flagged for a closer look

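Of 28 groups of 9 libraries examined, 3 had a library far from the rest, where chance gives about 1 in 20. In C. japonica, EVM0014634 stood at 1.74 TPM in Nov library 3, with the next autumn library at 0.541 TPM. EVM0029645 stood at 8.69 TPM in Sep library 2, with the next autumn library at 1.44 TPM. EVM0002957 stood at 0.829 TPM in Aug library 2, with the other 8 summer libraries at 0, where any value above 0 stands apart by construction, so it should not be counted against the chance rate.

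For 5 of the named IDs the autumn minus summer difference passed the test of a difference between C. japonica and C. azalea in the limma fit of both species. EVM0018558, EVM0028297 and EVM0029645 were named because they passed this test, so their passing adds nothing. EVM0002957 was named for it too, and also for Nov against Sep. EVM0018696 was named only for autumn against summer in C. japonica. The species difference was 2.99 for EVM0018696 (limma adjusted p = 0.0047), 3.34 for EVM0018558 (limma adjusted p = 0.013) and 3.34 for EVM0002957 (limma adjusted p = 0.00079). It was -3.23 for EVM0028297 (limma adjusted p = 0.004) and -2.96 for EVM0029645 (limma adjusted p = 0.038). EVM0002957 and EVM0029645 were at or near 0 in C. azalea and not tested there, so their values repeat the C. japonica difference. EVM0018696 was low in C. azalea, with medians of 1.65 TPM in autumn and 0.473 TPM in summer. The season mean of EVM0028297 fell in C. japonica and rose in C. azalea.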

How the results depend on the processing

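No difference of a named ID changed sign under the alternatives run, but the balance of autumn calls did turn, from an excess of higher calls on the deposited scale (500 higher, 159 lower) to an excess of lower calls under median-of-ratios scaling (171 higher, 219 lower). Counts that moved by over 1.5 times were as follows. At a pseudocount of 0.1, 0 IDs passed for Nov against Sep, 1810 in C. azalea and 57 for the species difference. The Oct count was 16 with no filter on low values and 69 with a mean of at least 5 TPM. Median-of-ratios scaling gave 390 for autumn against summer, 3 in Oct, 184 in Nov, 19 against both summer and winter and 235 species differences. Quantile normalization gave 374, 3 in Oct, 203 in Nov and 193 species differences. With summer and autumn libraries only, 18 passed in Oct, 1 for Sep against Aug and 8 for Nov against Sep. With month means as the unit, 0 passed in C. japonica, 0 in C. azalea (2498 at an unadjusted p below 0.05) and 0 for the species difference (1056). Without Feb library 1 and Jan library 3, 324 passed in Oct, 1673 in Nov, 4 for Nov against Sep, 90 against both summer and winter and 260 as species differences. Without Sep library 1 and Jul library 3, a choice made after seeing the data, the counts were 1264 for autumn, 373 in Sep, 395 in Oct, 3 for Sep against Aug, 0 for Nov against Sep, 59 against both summer and winter and 373 species differences, and with median-of-ratios scaling as well 158 in Sep, 120 in Oct and 398 in Nov. Leaving out 1 library at a time gave 393 (without Sep library 2) to 1108 (without Sep library 1) for autumn, 0 to 123 in Sep, 0 to 358 in Oct, 43 to 1254 in Nov, 0 to 3 for Sep against Aug, 0 to 2 for Nov against Sep, 17 to 51 against both summer and winter, 863 to 1241 in C. azalea and 74 to 293 species differences. The causes of these shifts were not tested. The replicate numbers of C. azalea gave no sign of pairing its libraries. Deviations correlated above 0.1 in 7 of 45 same-numbered pairs (median 0.018) and in 20 of 90 other-numbered pairs (median 0.00241). A replicate block gave 1021 calls in C. azalea and 104 species differences, a shift of under 1.5 times. TPM keep no depth, so no limit for low IDs can be given.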
